A study of Mus musculus with 6 samples.

Results

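The interferon-stimulated genes described here are 44 mouse genes, listed by symbol as known targets of interferon and not picked by a threshold on these libraries. They were nevertheless chosen with earlier results of these data known. All 44 matched a row of the deposited table, which lists 26286 genes, through the Entrez Gene identifier, and 43 had enough reads to be tested. Such genes are transcribed when a cell receives an interferon signal or senses foreign or misplaced nucleic acid. Type I and type II interferons bind receptors that activate Jak kinases, and these phosphorylate Stat proteins that enter the nucleus. A complex of Stat proteins with Irf9 binds the interferon-stimulated response element, while Stat dimers bind the gamma-activated site. The products bind viral RNA, block translation, cut RNA, modify proteins with Isg15 or restrict parasites and cell growth. Many of them are also expressed at a resting level in lymphocytes and myeloid cells.

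The libraries came from a B progenitor acute lymphoblastic leukemia, named A024 in the labels and called tri-transgenic there, which was carried by Rag1 knockout mice. Such hosts lack mature B and T cells of their own and keep myeloid and natural killer cells. Bone marrow leukemia cells were isolated by flow sorting for GFP, and their total RNA was sequenced. The untreated group held 3 libraries of cells gated as GFPhigh, from mice that received no doxycycline (dox). In the other group, 3 libraries were made from cells gated as GFPmid, from mice fed dox for 3 days, a treatment the labels call Pax5 restoration. In the published model, as background, dox shuts off a short hairpin RNA against Pax5 that is expressed together with GFP. Both groups thus carry the same transgenes and the same single leukemia, and sort gate and treatment changed together. Since no dox-fed leukemia lacking the hairpin was analysed, Pax5, drug and gate cannot be told apart as sources of a difference. The series' design text gives each library its own mouse, so p-values measure the spread between mice carrying 1 leukemia. The labels give no age, sex or strain of these hosts.

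Total counts ran from 14185203 to 15612435 per library. Pax5 itself measured 154, 93.5 and 105 CPM (read counts scaled to library size) in untreated replicates 1, 2 and 3 and 227, 281 and 231 CPM in dox replicates 1, 2 and 3, with no overlap (log2 fold change 1.07, SE 0.17, adjusted p = 0.000695, edgeR's quasi-likelihood test). The leukemia expressed its lineage genes. The 10 markers of B cell leukemia, all detected, summed to between 7039 and 7210.0 CPM before dox and to between 9189.8 and 10063 CPM after it. All 10 were tested and 8 were called higher. Cd24a was called lower, from a mean of 1928 to 1050 CPM (log2 fold change −0.88, adjusted p = 3.19e-05). Il7r did not pass (log2 fold change −0.27, adjusted p = 0.282). Of 13 neutrophil markers, 9 of them tested, 8 were called higher after dox, and their sum was 118, 92.9 and 109 CPM in the untreated and 552, 118 and 262 CPM in the dox libraries. Of 14 macrophage and monocyte markers, 12 of them tested, 11 were called higher, with sums of 21.2 to 31.4 CPM before dox and of 120.4, 56.5 and 69.7 CPM in dox replicates 1, 2 and 3. None of these 27 myeloid markers was at 0 in all libraries. Before dox, macrophage and monocyte markers other than Lyz2, Cd68 and Vcam1 averaged 1.03 CPM or less. Among all genes tested, 27% were called higher. Groups did not overlap for 44.4% of tested neutrophil and 91.7% of tested macrophage and monocyte markers, beside 62.2% of all genes. Of the tested macrophage and monocyte markers, only Lyz2 and Cd68 reached the minimum level for testing, 0.674 CPM, in every untreated library. The others, and Mpo among the neutrophil markers, needed their dox libraries to be tested. The filter thus favoured rises among them, and their shares cannot be weighed against those of all genes. Of 8 T cell markers, Cd3e and Cd8a were at 0 in all libraries, and Lck made up most of a sum that was 267 to 347 CPM before and 85.2 to 134 CPM after dox. Myeloid cells express many interferon-stimulated genes, and the part of these markers' cells in the results below was not tested. In bulk RNA, more cells of a type and more RNA per cell cannot be told apart.

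After 3 days of dox, 21 of the 43 interferon-stimulated genes that could be tested were higher and 2 were lower, while 20 did not pass the test. Calls were made with edgeR's quasi-likelihood test at a threshold of 0.05 on p-values adjusted by Benjamini and Hochberg's method over the 12275 genes tested. Among all genes tested, 27% were called higher and 26.6% lower, against 48.8% and 4.65% of the 43. The share called in either direction was nearly that of all genes, 53.5% against 53.6%. The median log2 fold change of the set was 0.42, beside 0.01 for all genes tested. Of the 21 rises, 8 reached 2-fold, namely those of Slfn5, Zbp1, Slfn2, Mx1, Oas2, Oasl2, Mx2 and Ifit3, and across all genes 7.87% passed that mark. That count, without dox replicate 1, was 4 (Slfn5, Zbp1, Slfn2 and Oas2, beside 6.82% of all genes), and it was 6 to 10 without any other single library. No member fell 2-fold, a mark that 3.86% of all genes passed. The groups did not overlap for 21 members above and 2 below the untreated range, 53.5% in all, where 31.2% and 31% of all genes lay wholly above or below, 62.2% in all. Only Ifi44 fell short of the minimum count, with 1 read in each untreated library and 8, 3 and 1 reads in dox replicates 1, 2 and 3. Iigp1, which was not called, reached the minimum in every dox library but not in every untreated one. The other 42 members reached the minimum of 0.674 CPM in every untreated library.

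**Figure D1:**
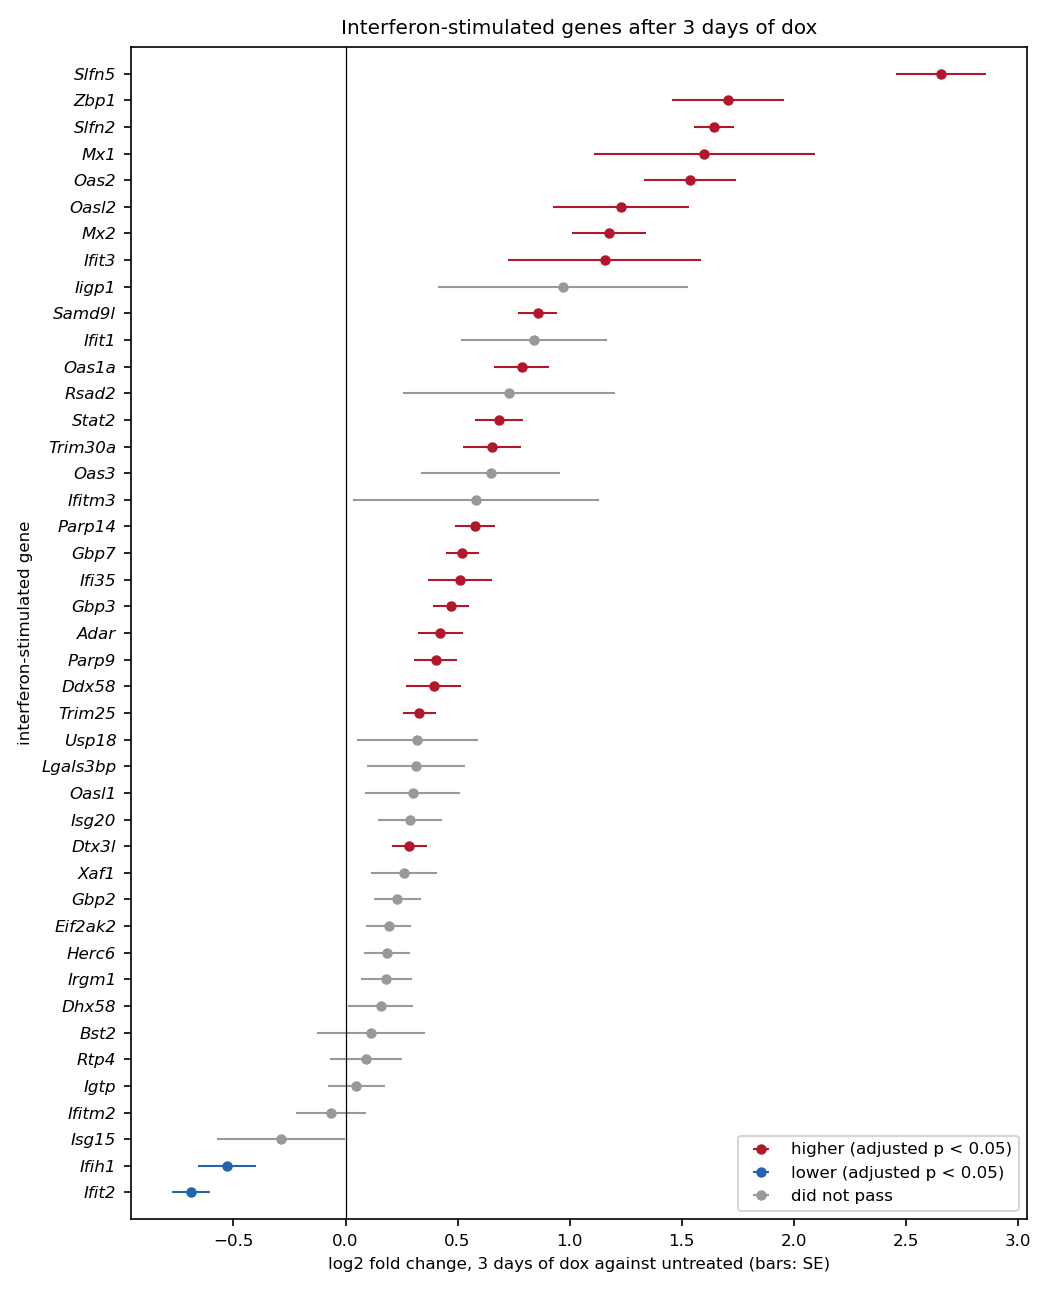
Log2 fold change (3 days of dox against untreated, horizontal axis) of the 43 tested interferon-stimulated genes (vertical axis), with bars for the SE and colours for the call at an adjusted p under 0.05. Values run from −0.69 for Ifit2 to 2.66 for Slfn5, with 21 genes higher, 2 lower and 20 that did not pass.

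Promoter sequence was searched for the set as well. The genes were listed as known targets of interferon, a signal that acts through the elements named above. The shares below therefore describe the list and not these libraries. RefSeq promoter windows of build GRCm38.p6, from 250 bases before to 50 bases after each annotated start, were at hand for 34 of the 44 genes. The core of the interferon-stimulated response element, searched on both strands as GAAA followed after any 2 bases by another GAAA, overlaps allowed, occurred in windows of 20 of these 34 genes (58.8%). Of all 27025 genes with windows of the same length, 3.99% held it. The gamma-activated site, searched as TTCNNNGAA, which reads the same on both strands, occurred for 10 of the genes (29.4%), beside 9.55% of all genes with windows. The response element was found for 8 of 15 genes called higher and for 11 of 16 that did not pass, a difference that was not tested. A match is a description of letters, not a site or a cause. The stretches below run 5′ to 3′ along the gene's strand, end before the start and show matches in capitals. Among rising genes with a window, Slfn5 and Gbp7 have the smallest p of those with a match before their start. No window was at hand for the rising genes Zbp1, Oas2, Mx1, Mx2, Parp9 and Parp14, so their promoters were not searched. Oas1a and Ifit3 were added as further rising genes, and Ifit1 and Isg15 as genes with repeated matches that did not pass, all 4 after their values had been seen.
Slfn5: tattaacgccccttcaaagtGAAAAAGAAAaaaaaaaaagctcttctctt
Gbp7: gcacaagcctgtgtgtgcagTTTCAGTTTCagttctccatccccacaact
Oas1a: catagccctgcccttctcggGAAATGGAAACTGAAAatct
Ifit3: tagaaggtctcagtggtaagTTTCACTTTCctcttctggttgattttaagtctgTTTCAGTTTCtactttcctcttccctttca
Ifit1: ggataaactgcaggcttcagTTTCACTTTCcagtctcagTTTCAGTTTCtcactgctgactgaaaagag
Isg15: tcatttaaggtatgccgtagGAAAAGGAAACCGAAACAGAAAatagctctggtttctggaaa
The Slfn5 stretch (GRCm38.p6 chr11:82951927-82951976, forward strand) has its match 155 bases before the start, and a run of A follows it. In Gbp7 (GRCm38.p6 chr3:142530263-142530312, forward strand) the match lies on the opposite strand, 53 bases before the start. Oas1a (GRCm38.p6 chr5:120907526-120907565, reverse strand) has 2 overlapping matches that begin 20 bases before its start. Ifit3 (GRCm38.p6 chr19:34583353-34583436, forward strand) and Ifit1 (GRCm38.p6 chr19:34640765-34640833, forward strand) each carry 2 separate matches on the opposite strand, and Isg15 (GRCm38.p6 chr4:156200855-156200916, reverse strand) has 3 that overlap. Of the 2 genes that fell, Ifih1 held the response element, after its start, and neither window of Ifit2 did.

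All 3 genes of the Schlafen and Samd9l group, listed here as growth restrictors, were called higher, and Slfn5 had the largest fold change of the 43. Slfn5, a Schlafen protein linked to restraint of proliferation, measured 11.9, 12.9 and 15.8 CPM in untreated replicates 1, 2 and 3 and 104, 60.5 and 91.7 CPM in dox replicates 1, 2 and 3. Every dox library exceeded the highest untreated one, and the rise was 6.32-fold (log2 fold change 2.66, SE 0.20, adjusted p = 1.26e-05). Slfn2, a Schlafen protein needed for lymphocyte quiescence, was the member with the smallest p and had 147, 122 and 129.9 CPM before and 447, 388 and 411 CPM after dox (log2 fold change 1.64, SE 0.09, adjusted p = 3.67e-06). Its 3 dox libraries lay close together, at 415 ± 29.5 CPM (SD, n = 3). Per kilobase of the deposited gene length, Slfn2 was the most abundant member after dox, at 249.7 RPKM (CPM per kilobase), up from 79.9 RPKM. Samd9l, a restrictor of growth and translation, went from 102, 120.5 and 114 CPM to 214, 211 and 184 CPM (log2 fold change 0.86, SE 0.09, adjusted p = 5.69e-05). For all 3 genes the call held without each single library.

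**Figure D2:**
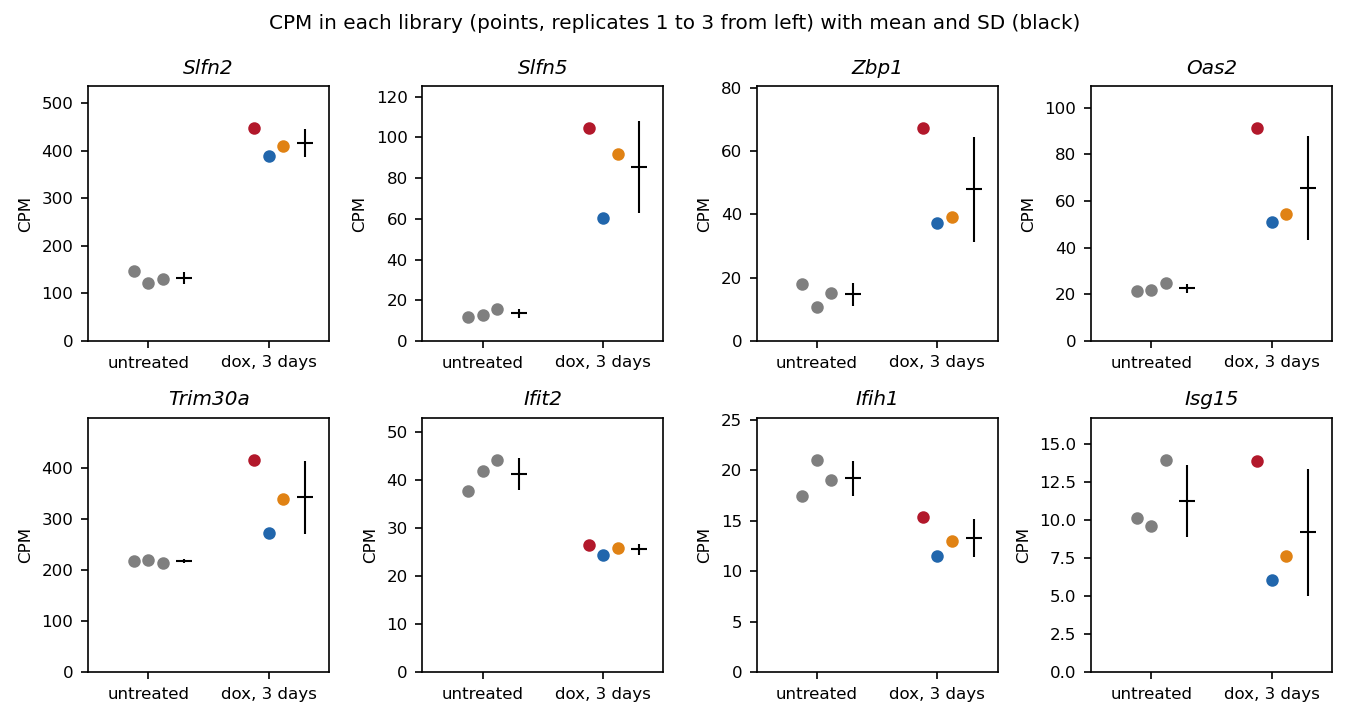
CPM (vertical axis, from 0) of 8 interferon-stimulated genes in untreated mice and after 3 days of dox (horizontal axis), with points for replicates 1 to 3 from left and black marks for the mean and SD of 3 libraries. Slfn2, Slfn5, Zbp1, Oas2 and Trim30a lie wholly above and Ifit2 and Ifih1 wholly below the untreated range, while Isg15 overlaps it.

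The sensors of nucleic acid moved in both directions. Zbp1, which recognises left-handed double-stranded nucleic acid and can start cell death, rose 3.27-fold, from 18.1, 10.7 and 15.2 CPM to 67.1, 37.3 and 39.3 CPM (log2 fold change 1.71, SE 0.25, adjusted p = 0.000437). Dox replicate 1 was far above the other two, which were still above every untreated library. Ifih1, which encodes the long double-stranded RNA sensor Mda5, fell. It measured 17.5, 20.998 and 19.03 CPM in the untreated and 15.3, 11.6 and 12.997 CPM in the dox libraries, with no overlap (log2 fold change −0.53, SE 0.13, adjusted p = 0.00735), and the fall was called without each single library. Ddx58, which encodes the RNA sensor Rig-I, had 88.3, 104 and 104 CPM before and 155, 111 and 123 CPM after dox (log2 fold change 0.39, SE 0.12, adjusted p = 0.0231). Its rise was lost without dox replicate 1 (log2 fold change 0.24, adjusted p = 0.068) and without untreated replicate 1 (adjusted p = 0.0854). Dhx58, which encodes the regulatory helicase Lgp2, did not pass (log2 fold change 0.16, adjusted p = 0.385). It had 42.1, 49.6 and 55.1 CPM before and 66.7, 45.8 and 51.3 CPM after dox, with dox replicates 2 and 3 inside the untreated range.

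Stat2, a subunit of the transcription factor that type I interferon receptors activate, rose from 66.9, 65.9 and 60.9 CPM to 122, 95.99 and 93.1 CPM. The groups did not overlap (log2 fold change 0.68, SE 0.11, adjusted p = 0.000667).

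The 3 Ifit genes, whose products bind viral RNA and restrain translation, went different ways. Ifit2 fell, and it had the smallest p of the members that were lower. Untreated replicates 1, 2 and 3 had 37.8, 41.997 and 44.3 CPM and dox replicates 1, 2 and 3 had 26.5, 24.4 and 25.9 CPM, so the dox libraries were nearly equal and all below the lowest untreated one (log2 fold change −0.69, SE 0.08, adjusted p = 0.000157). Ifit3 had 5.73, 3.22 and 6.73 CPM before and 20.1, 5.92 and 8.84 CPM after dox and was called higher by a narrow margin (log2 fold change 1.16, SE 0.43, adjusted p = 0.0468). The groups overlapped, because dox replicate 2 lay below untreated replicate 3. The call was lost without dox replicate 1 (log2 fold change 0.50, adjusted p = 0.208), without untreated replicate 1, 2 or 3 (adjusted p = 0.091, 0.149 and 0.0587) and without dox replicate 3 (0.0559). Ifit3 has a near-identical neighbouring copy, so its count is uncertain as well. Ifit1 missed the threshold (log2 fold change 0.84, SE 0.33, adjusted p = 0.0545), with 3.91, 3.62 and 3.06 CPM in the untreated and 10.003, 4.04 and 4.93 CPM in the dox libraries. Ifit1 was called higher without dox replicate 2 (adjusted p = 0.0105) and, with all 6 libraries, in 4 of 7 other settings: upper-quartile scaling (0.0494), no low-count filter (0.0443), the DESeq2 test (0.0322) and the replicate block (0.0221). Its log2 fold change without dox replicate 1 was 0.34 (adjusted p = 0.24).

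In the family of oligoadenylate synthetases, which sense double-stranded RNA and start RNA decay, 3 of 5 genes rose. Oas2 went from 21.2, 21.7 and 24.8 CPM to 91.1, 51.1 and 54.5 CPM, a 2.90-fold rise (log2 fold change 1.54, SE 0.21, adjusted p = 0.000263). Oas1a, whose count may include reads of close copies, rose from 30.6, 33.3 and 36.6 CPM to 64.6, 47.3 and 61.4 CPM (log2 fold change 0.79, SE 0.12, adjusted p = 0.000631). Oasl2, a synthetase-like protein, rose from 5.38, 4.90 and 4.55 CPM to 17.5, 6.82 and 10.4 CPM (log2 fold change 1.23, SE 0.30, adjusted p = 0.0076), and without dox replicate 1 its log2 fold change was 0.80 and still called. For these 3 genes the groups did not overlap. Oas3 and Oasl1 did not pass, and Oasl1 had a log2 fold change of 0.30 (adjusted p = 0.261). Oas3 had 6.43, 7.11 and 9.04 CPM before and 16.7, 6.13 and 12.5 CPM after dox, where dox replicate 2 was below all untreated libraries, and without that library the gene was called higher (log2 fold change 0.95, adjusted p = 0.0018). The log2 fold change of Oas3 without dox replicate 1 was 0.31 (adjusted p = 0.401).

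Of the other proteins that bind double-stranded RNA, Adar rose and Eif2ak2 did not pass. Adar, which edits adenosine in RNA and keeps the cell's own transcripts from triggering sensors, had 194, 229.6 and 208 CPM before and 319.7, 254 and 272 CPM after dox (log2 fold change 0.42, SE 0.10, adjusted p = 0.00574). Eif2ak2, which encodes the kinase PKR that shuts down translation, had 102, 136 and 124 CPM and 139, 130.4 and 143 CPM, and dox replicate 2 lay below untreated replicate 2 (log2 fold change 0.19, adjusted p = 0.136).

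Both Mx genes, which encode dynamin-like antiviral GTPases, were called higher. Mx2 was at 9.51, 9.26 and 9.52 CPM in the untreated libraries, which hardly differed, and at 27.1, 18.03 and 18.8 CPM after dox (log2 fold change 1.18, SE 0.16, adjusted p = 0.000327). Mx1, of which many laboratory strains carry a defective form, had 3.15, 1.41 and 2.86 CPM before and 13.8, 4.04 and 4.67 CPM after dox (log2 fold change 1.60, SE 0.49, adjusted p = 0.0212). For both genes the groups did not overlap. Without dox replicate 1 the log2 fold change of Mx1 was 0.82 (adjusted p = 0.0669), and without untreated replicate 2 it was 1.31 (adjusted p = 0.076), neither of which passed.

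Among 6 GTPases that act chiefly against intracellular microbes and that respond strongly to interferon gamma, 2 guanylate-binding proteins rose and no gene fell. Gbp7, the most abundant member per kilobase before dox (92.996 RPKM), had 494, 529 and 526 CPM in the untreated and 769, 756 and 699 CPM in the dox libraries (log2 fold change 0.52, SE 0.07, adjusted p = 0.000309). Gbp3 rose from 126, 105 and 120.0 CPM to 167, 156 and 163 CPM (log2 fold change 0.47, SE 0.08, adjusted p = 0.000913). Both genes had dox libraries that lay close together, at 741 ± 37.6 CPM for Gbp7 and 162 ± 5.75 CPM for Gbp3 (SD, n = 3). Gbp2 had 73.7, 76.9 and 86.1 CPM before and 107, 85.97 and 84.6 CPM after dox and did not pass (adjusted p = 0.0933). The immunity-related GTPases Igtp, Irgm1 and Iigp1 did not pass either, with log2 fold changes of 0.05, 0.18 and 0.97. Without untreated replicate 1 that of Iigp1 was 1.65 (adjusted p = 0.0559). Igtp was at 43.5, 43.4 and 44.05 CPM in untreated and at 54.4, 36.1 and 44.9 CPM in dox replicates 1, 2 and 3, so dox libraries lay on both sides of a narrow untreated range. Irgm1 had 108, 99.2 and 102 CPM before and 139, 98.8 and 113 CPM after dox and passed without dox replicate 2 (log2 fold change 0.29, adjusted p = 0.0292), and its log2 fold change was 0.03 without dox replicate 1.

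None of the 4 membrane-associated effectors was called, and none had an unadjusted p under 0.05. Bst2, which encodes tetherin, a protein that holds budding viruses at the cell surface, had 22.4, 18.8 and 23.4 CPM before and 30.8, 13.7 and 25.3 CPM after dox (log2 fold change 0.11, adjusted p = 0.716). Rsad2, which encodes viperin, an enzyme that makes a chain-terminating nucleotide, had 1.75, 2.15 and 1.43 CPM and 5.33, 1.25 and 2.24 CPM (log2 fold change 0.73, adjusted p = 0.221). In both genes dox replicate 2 lay below and dox replicate 1 above every untreated library. Without dox replicate 2 both were called higher, with log2 fold changes of 0.38 for Bst2 and 1.09 for Rsad2 and adjusted p of 0.0281 and 0.0332. Neither passed without dox replicate 1, with log2 fold changes of −0.14 and −0.02. Ifitm2 and Ifitm3, which block fusion of viruses with endosomes, had log2 fold changes of −0.06 (SE 0.16) and 0.58 (SE 0.55). Ifitm3 varied within each group, with 4.68, 1.14 and 3.67 CPM in the untreated and 8.62, 3.13 and 2.43 CPM in the dox libraries, and its log2 fold change was −0.19 without dox replicate 1.

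Of Isg15 and 2 genes that attach or remove it, none was called. Isg15, the ubiquitin-like modifier itself, had 10.1, 9.59 and 13.9 CPM before and 13.9, 6.06 and 7.62 CPM after dox and did not pass (log2 fold change −0.29, SE 0.28, adjusted p = 0.423). Dox replicate 1 nearly equalled the highest untreated library and dox replicates 2 and 3 were below all of them. Without dox replicate 1, Isg15 was called lower (log2 fold change −0.71, adjusted p = 0.0194). Usp18, which removes Isg15 from proteins and dampens the type I receptor, had 15.9, 16.03 and 18.97 CPM and 31.8, 12.8 and 18.9 CPM, and the mouse Isg15 ligase Herc6 had 58.2, 63.4 and 64.1 CPM and 81.01, 62.6 and 67.5 CPM. Neither passed (log2 fold changes 0.32 and 0.19), and both were called higher without dox replicate 2 (adjusted p = 0.028 and 0.0404). Their log2 fold changes without dox replicate 1 were −0.10 and 0.07, and neither passed. The ubiquitin ligase genes of the Trim family rose. Trim30a, a regulator of innate signalling with close paralogs, went from 219, 221 and 214 CPM to 416, 273 and 340.0 CPM (log2 fold change 0.65, SE 0.13, adjusted p = 0.00242), and Trim25, a ligase that assists Rig-I, from 219, 245 and 232 CPM to 312, 284 and 278 CPM (log2 fold change 0.33, SE 0.07, adjusted p = 0.00461).

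All 3 genes of the Parp9, Dtx3l and Parp14 group were higher after dox, by 1.22 to 1.49-fold. Parp14, an ADP-ribosyltransferase, rose from 184, 205 and 180.3 CPM to 315, 275 and 258 CPM (log2 fold change 0.58, SE 0.09, adjusted p = 0.000616). Parp9, which forms a complex with the ligase Dtx3l, rose from 97.996, 109 and 107 CPM to 154, 119.7 and 140.3 CPM (log2 fold change 0.40, SE 0.10, adjusted p = 0.00627). Dtx3l went from 135, 159 and 152 CPM to 191, 172 and 180.5 CPM (log2 fold change 0.28, SE 0.08, adjusted p = 0.0131), and its call was lost without dox replicate 1 (log2 fold change 0.24, adjusted p = 0.0518). Parp9 and Dtx3l are neighbours on opposite strands, and without a stated strand setting any shared reads cannot be told apart.

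Of the 5 remaining members tested, Ifi35 alone was called. Ifi35, a modulator of innate signalling, rose from 8.67, 8.25 and 10.6 CPM to 14.3, 11.6 and 13.4 CPM (log2 fold change 0.51, SE 0.14, adjusted p = 0.0138), and its call was lost without untreated replicate 2 (log2 fold change 0.44, adjusted p = 0.0594). Isg20, an exonuclease, had 15.5, 14.1 and 17.2 CPM before and 23.03, 16.99 and 17.2 CPM after dox (adjusted p = 0.115). Xaf1, which promotes apoptosis, had 34.8, 46.5 and 44.7 CPM and 61.1, 42.4 and 47.6 CPM (adjusted p = 0.167), and was called higher without dox replicate 2 (log2 fold change 0.37, adjusted p = 0.0433), with a log2 fold change of 0.10 without dox replicate 1. Rtp4 and Lgals3bp had log2 fold changes of 0.09 and 0.31. Lgals3bp, a secreted glycoprotein, had 16.3, 29.4 and 34.5 CPM before and 32.6, 36.1 and 31.2 CPM after dox, and untreated replicate 1 was the lowest of the 6 libraries.

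The dox libraries differed from each other more in these genes than in the rest of the transcriptome, and mostly in 1 order. Dox replicate 1 was the highest of the 3 dox libraries for 40 of the 43 genes (93%), while it was highest for 30.4% of all genes tested. The exceptions were Eif2ak2, Ifitm2 and Lgals3bp. Dox replicate 2 was the lowest for 33 of the 43 and for 36.7% of all genes. The order of replicate 1 above 3 above 2 held for 31 members (72.1%) and for 16.5% of all genes. On the scale of log2(CPM + 0.5), the median difference of the 43 genes from their untreated mean was 0.62, 0.21 and 0.29 in dox replicates 1, 2 and 3, and it lay between −0.08 and 0.06 in the untreated libraries. The sum over all 44 genes was 2893, 3108 and 3094 CPM before and 5004, 4066 and 4268 CPM after dox. The median SD of a member over the 3 dox libraries was 0.27 on that log2 scale, against 0.14 over the untreated libraries. For all genes tested these medians were 0.12 and 0.10.

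**Figure D3:**
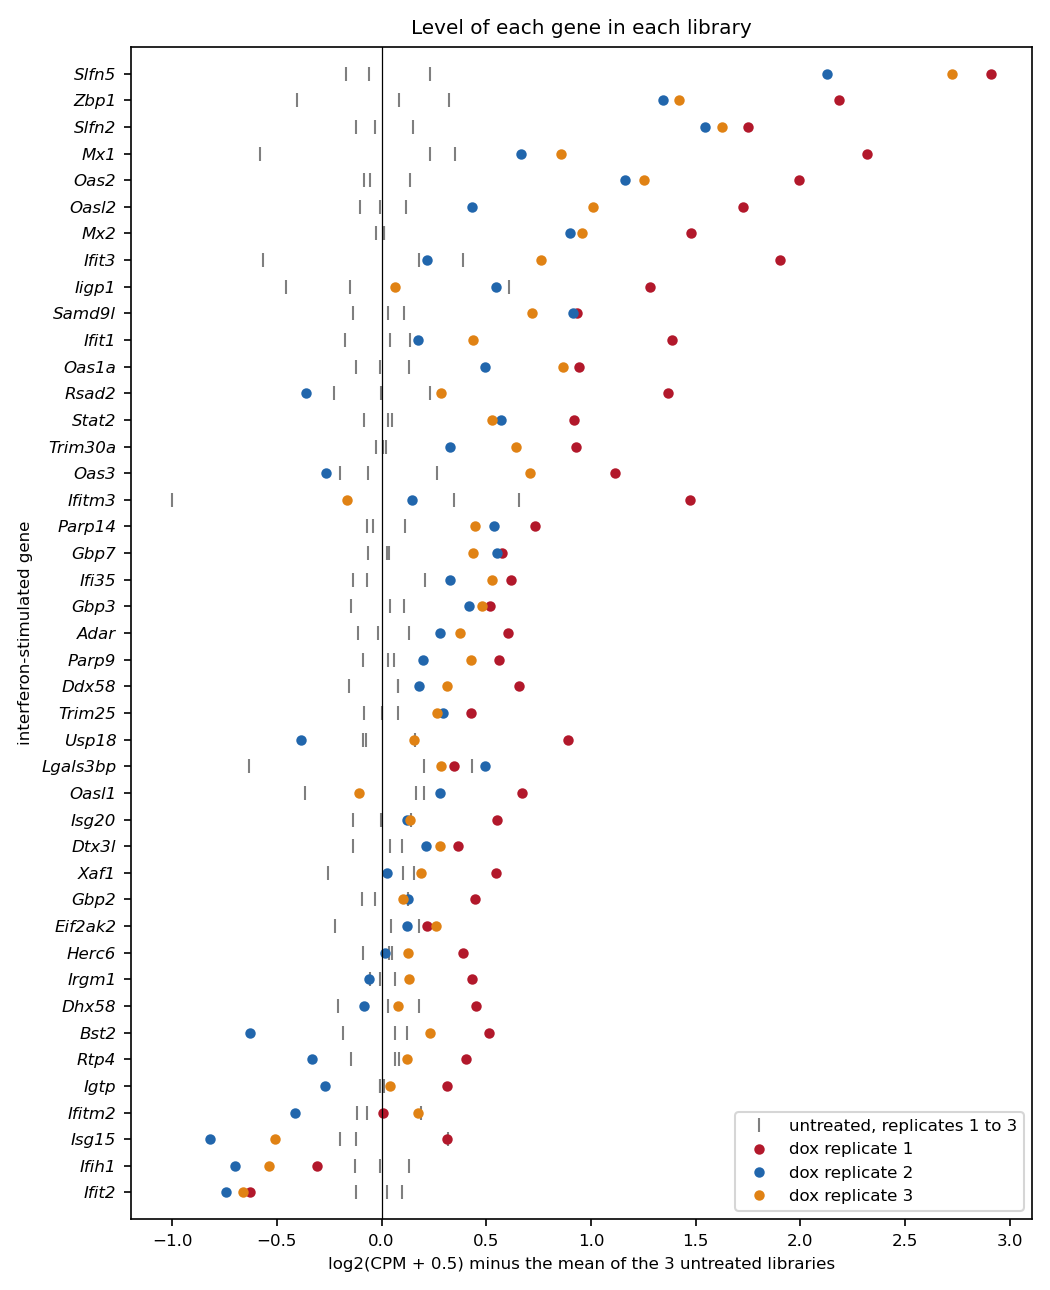
Level of each of the 43 tested interferon-stimulated genes (vertical axis) in each library, as log2(CPM + 0.5) minus the mean of the 3 untreated libraries (horizontal axis), with grey ticks for untreated and coloured points for dox replicates. Dox replicate 1 is the rightmost dox point for 40 genes and dox replicate 2 the leftmost for 33.

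The span between dox libraries was unequal across the members. Dox replicate 1 exceeded dox replicate 2 by 4.25-fold for Rsad2, 3.41-fold for Mx1, 3.40-fold for Ifit3 and 2.48-fold for Usp18. The same ratio was 1.02 for Gbp7, 1.02 for Samd9l, 1.09 for Ifit2, 1.15 for Slfn2 and 1.07 for Eif2ak2. Genes with a wide span were among those called in every fit with 1 library left out, such as Oasl2 at 2.57-fold, Slfn5 at 1.73-fold and Oas2 at 1.78-fold, and Eif2ak2 was called in none. The summed neutrophil markers followed the members' order, with 552, 118 and 262 CPM in dox replicates 1, 2 and 3. The macrophage and monocyte sum (120.4, 56.5 and 69.7 CPM) had it through Lyz2, its largest part (75.2, 16.7 and 34.96 CPM). Of the other genes on that list, only Vcam1 and Slc40a1 had the order. C1qa, C1qb, Mertk, Cd68 and Ms4a7 were highest in dox replicate 2. Csf1r, Adgre1, C1qc and Hmox1 were highest in dox replicate 1 and lowest in dox replicate 3, and Cd5l and Fcgr1 were highest in dox replicate 3. Sums of erythroid markers (8.95, 1.53 and 3.52 CPM) and of platelet markers (0.921, 0.418 and 0.64 CPM) had the members' order too. None of the 5 platelet markers could be tested. No other marker list had that order. Sums were highest in dox replicate 2 for B cell leukemia (9798, 10063 and 9190 CPM) and T cell markers (85.6, 134 and 85.2 CPM). Natural killer cell (3.88, 10.2 and 4.42 CPM) and stroma markers (156, 161 and 130 CPM) were also highest there. Most of the natural killer sum in dox replicate 2 was Klrb1c (9.19 CPM). Pecam1 (152, 157 and 127 CPM) made up nearly all of the stroma sum. Plasmacytoid (1506, 1197 and 1062 CPM) and other dendritic cell markers (2.57, 2.30 and 1.86 CPM) were lowest in dox replicate 3. Nearly all of the plasmacytoid sum came from Spib (1107, 948 and 857 CPM) and Ly6d (398, 249 and 203 CPM). The highest of the rest, Pacsin1, had 0.79, 0.487 and 1.09 CPM, and Siglech had 3, 0 and 2 reads. That sum is therefore not a level of plasmacytoid dendritic cells. In dox replicate 2 the neutrophil sum lay within the untreated range, 118.1 CPM against 92.9 to 118.4 CPM, and the macrophage and monocyte sum above it, 56.5 CPM against 21.2 to 31.4 CPM. In that library 23 of the 43 members were above the highest untreated library and 11 were below the lowest one, beside 42.5% and 40.2% of all genes. The corresponding counts were 38 and 2 in dox replicate 1, beside 42.1% and 40.6% of all genes, and 31 and 3 in dox replicate 3, beside 40.1% and 40.1%.

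**Figure D4:**
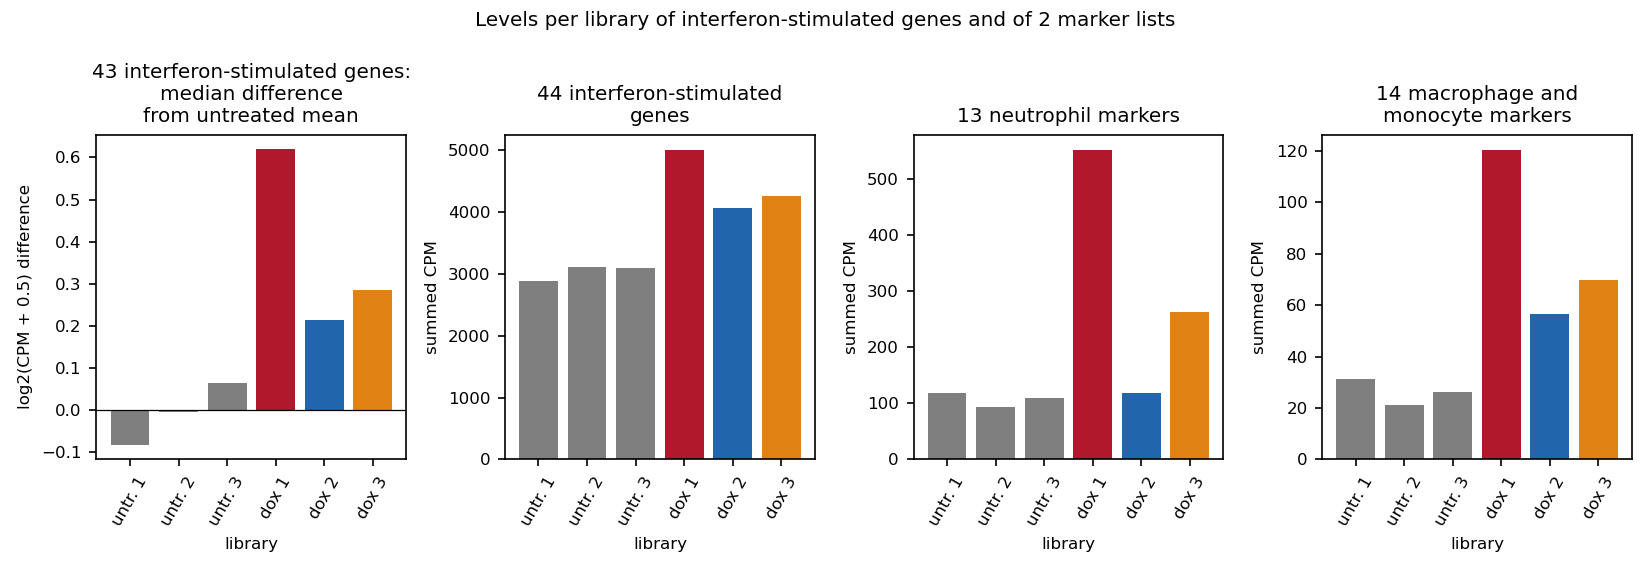
Bars for each of the 6 libraries (horizontal axis) show, from left, the median difference of 43 interferon-stimulated genes from the untreated mean (log2 scale), the summed CPM of all 44, and the summed CPM of neutrophil and of macrophage and monocyte markers. All 4 panels have their highest bar in dox replicate 1, and dox replicate 2 has a neutrophil sum of 118.1 CPM, within the untreated range of 92.9 to 118.4 CPM.

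The number of rises depended on which dox library was used. Without dox replicate 1, 17 members were higher and 3 were lower (Ifit2, Ifih1 and Isg15), with a median log2 fold change of 0.31 and 11 of 43 estimates below 0. Of all genes, 22.8% were higher in that fit. Without dox replicate 2, 29 members were higher and 2 lower, with a median of 0.50, beside 25.5% of all genes higher. Leaving out any of the other 4 libraries gave 18 to 20 higher and 2 lower. Of all genes, 21.6% to 25.1% were higher and 22.4% to 25.1% lower in those fits. In all 6 of these fits, 16 of the 21 rises and both falls were called. How often calls of all genes held in the 6 fits was not computed, so no share stands beside these counts. The 16 are Zbp1, Stat2, Oas1a, Oas2, Oasl2, Adar, Mx2, Gbp3, Gbp7, Trim25, Trim30a, Parp9, Parp14, Slfn2, Slfn5 and Samd9l.

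**Figure D5:**
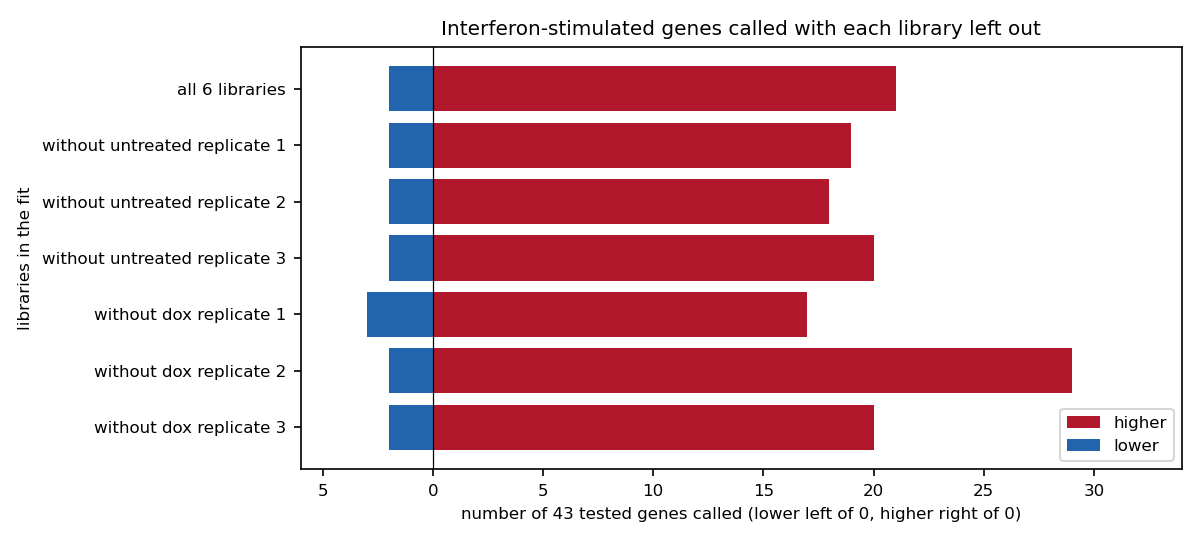
Number of the 43 tested interferon-stimulated genes called higher (right of 0) and lower (left of 0) on the horizontal axis, for the fit with all 6 libraries and for fits without 1 library each (vertical axis). The higher count runs from 17 without dox replicate 1 to 29 without dox replicate 2.

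The genes upstream of the set were read from a list of 50 that holds none of the 44. No read was assigned to any of 10 interferon genes, among them Ifnb1, Ifng and 4 Ifna genes, in any library. A count of 0 allows up to 3 reads, or 0.192 to 0.21 CPM per library (counting error only). Of the other 40 genes, all tested, 22 were higher and 6 lower, 55% and 15%, beside 27% and 26.6% of all genes. Their median log2 fold change was 0.32, beside 0.01 for all genes.

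Receptor and kinase genes were higher for 6 of 9 (66.7%) and lower for none, beside 27% and 26.6% of all genes. The interferon gamma receptor chain Ifngr2 had the smallest p and rose from 55.01, 49.4 and 49.2 CPM to 98.1, 112 and 94.6 CPM (log2 fold change 0.98, SE 0.09, adjusted p = 2.83e-05). Ifnar1, a chain of the type I receptor, rose by 0.21 (SE 0.06) on the log2 scale, a call lost without untreated replicate 3 or dox replicate 2 (adjusted p = 0.0899 and 0.0521), whereas its partner Ifnar2 did not pass (−0.13). The kinase gene Jak1 rose by 0.22 (SE 0.07), and its call held, among fits with 1 library left out, only without dox replicate 2 (adjusted p = 0.0681 to 0.119 in the other 5) and was lost with no low-count filter (0.0832). Of the Irf factors listed, Irf5, Irf8 and Irf9 rose. Irf5 went from 56.4, 56.9 and 64.3 CPM to 179.5, 178 and 162 CPM (log2 fold change 1.55, SE 0.08, adjusted p = 2.62e-06), with dox libraries close together. Irf7, the factor that amplifies type I interferon production and is itself induced by interferon, did not pass (log2 fold change −0.46, adjusted p = 0.106). It measured 36.3, 41.5 and 42.2 CPM before and 40.8, 18.9 and 27.3 CPM after dox, where replicates 2 and 3 were below all untreated libraries, as for Isg15. Without dox replicate 1 Irf7 was called lower (log2 fold change −0.79, adjusted p = 0.00314), and the DESeq2 test called it lower with all libraries (adjusted p = 0.0475), as did the edgeR fit with a replicate block (0.0471).

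Of 11 adaptors, kinases and sensors upstream of interferon production, 6 rose and 2 fell (54.5% and 18.2%, beside 27% and 26.6% of all genes). Tlr9, the endosomal sensor of unmethylated DNA, rose from 16.3, 13.1 and 16.4 CPM to 53.04, 45.04 and 42.1 CPM (log2 fold change 1.62, SE 0.12, adjusted p = 1.22e-05), and Unc93b1, which carries such receptors to the endosome, from 196, 171 and 188 CPM to 686, 578 and 466 CPM (log2 fold change 1.64, SE 0.13, adjusted p = 1.66e-05). Mb21d1, which encodes the cytosolic DNA sensor cGAS, fell from 4.75, 8.59 and 7.48 CPM to 1.91, 1.95 and 2.11 CPM (log2 fold change −1.80, SE 0.25, adjusted p = 0.000329), and the kinase gene Tbk1 fell by 0.23 (SE 0.07) on the log2 scale. Of 6 negative regulators, Socs1, Socs3 and Ptpn6 rose and Ptpn11 fell (50% and 16.7%, beside the same shares of all genes). Ptpn6, which encodes the phosphatase Shp1, had 179, 174 and 185 CPM before and 244, 243 and 250.4 CPM after dox (log2 fold change 0.45, SE 0.06, adjusted p = 0.000258). Among the rises, that of the adaptor gene Mavs was lost in 4 fits with 1 library left out (any untreated replicate or dox replicate 2, adjusted p = 0.0584 to 0.109) and with no low-count filter (0.0501), and that of Tlr3 without dox replicate 3 (0.055). The calls of Tbk1, Socs1 and Socs3 were each lost in 4 of the 6 fits with 1 library left out, at adjusted p of 0.0506 to 0.109 for Tbk1 (untreated replicate 2 or 3, dox replicate 1 or 3), 0.0708 to 0.117 for Socs1 (untreated replicate 2 or 3, dox replicate 1 or 2) and 0.0553 to 0.108 for Socs3 (untreated replicate 2 or 3, dox replicate 2 or 3).

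Enzymes that clear nucleic acids moved in both directions. Samhd1, which depletes deoxynucleotides, rose from 116, 84.1 and 87.1 CPM to 272, 217 and 233 CPM (log2 fold change 1.33, SE 0.13, adjusted p = 4.97e-05), and Trex1, a DNA exonuclease, rose by 0.33 (SE 0.10) on the log2 scale. The 3 subunits of RNase H2, which removes ribonucleotides from DNA, fell together. Rnaseh2a went from 45.6, 48.6 and 49.7 CPM to 26.4, 29.7 and 24.6 CPM (log2 fold change −0.84, SE 0.09, adjusted p = 6.47e-05), and the log2 fold changes of Rnaseh2b and Rnaseh2c were −0.82 (SE 0.10) and −0.64 (SE 0.09). The rise of Trex1 was lost without untreated replicate 2 or 3 or dox replicate 1 (adjusted p = 0.059 to 0.0768) and with the DESeq2 test (0.0554).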

How the data were processed

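Total RNA of sorted leukemia cells was sequenced in 6 libraries. The deposited values are whole numbers, the authors' read counts for each gene, listed by Entrez Gene identifier beside the gene's length. Tools named per the submitters' processing notes are CASAVA 1.8.2 and featureCounts, with build mm9. How reads were aligned, annotated and assigned to strands is not stated in the labels. The 6 per-sample files equalled the columns of the series table. Symbols came from RefSeq GRCm38.p6, which matched 24176 of 26286 identifiers; 2 pathway genes were matched by older symbols.

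Counts were filtered with filterByExpr (minimum count 10), scaled with TMM factors and compared with edgeR 4.0.16 in R 4.3.3, with all 6 libraries and no covariates; levels are TMM-scaled CPM, and RPKM divides these by the deposited length. An SE is the log2 fold change over the square root of F. Libraries were grouped by their titles. The genes and lists were chosen with earlier results of these data known. Values per library were given for the 3 genes with the smallest p in each functional group, every gene called lower, called genes changed 2-fold, genes whose call a left-out library changed and, upstream, the called gene with the smallest p of each list; further genes were added after their values had been seen. Genes with close copies (Ifit3, Oas1a, Trim30a) are uncertain. The alternatives were DESeq2 1.42.0 size factors and test, upper-quartile scaling, 2 other filters, voom of limma 3.58.1, the replicate number as a block, and leaving out each library. The code was tested on simulated counts. Values of some upstream genes are not reported here.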

Additional observations from a re-analysis of the deposited data

How the results depend on the processing

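The count of interferon-stimulated genes higher after dox was 21 in the reported test, 20 to 23 with the other scalings, filters, tests and the replicate block, and 17 to 29 with 1 library left out. The count lower was 2, and 3 without dox replicate 1. Of the 21 rises, 20 were called in all 7 settings that kept every library, the exception being Ifit3, which had adjusted p of 0.103 with the DESeq2 test and 0.0888 with limma voom. The matching share for the rises of all genes was not computed. The median log2 fold change of the set lay between 0.31 and 0.50 in all settings run. No called gene of the set changed direction in any of them, and neither did a called pathway gene. Pathway genes numbered 16 to 21 higher and 5 to 6 lower with 1 library left out, and all genes 2693 to 3168 higher and 2791 to 3193 lower. With no low-count filter, 18.3% of all genes were higher and 19.8% lower, of more genes tested.

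Deviations from group means correlated at 0.32, 0.29 and −0.04 between libraries of the same number, 1, 2 and 3. Between unlike numbers they correlated at −0.35 (untreated 2 with dox 1), −0.29 (untreated 1 with dox 2) and otherwise at −0.01 to 0.04. These values do not settle whether the numbers pair libraries, and the reported test used no block. With the replicate block, 23 members were higher, Ifit1 and Iigp1 being added, and 2 lower, pathway counts were 24 and 7, and all genes 3434 and 3356. Members under about 10 CPM rest on few reads (Iigp1 on 5 to 35 per library).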
